A study of Mus musculus with 23 samples.

Results

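The genes of the major histocompatibility complex (MHC) and of antigen presentation were followed in RNA-seq counts from mouse liver. The set held every gene whose symbol starts with H2-, the mouse MHC prefix, together with Cd74, Ciita, B2m, Tap1, Tap2 and Tapbp. It came to 49 of the 24440 genes in the count table, of which 43 carried the H2- prefix. The 23 libraries came from livers of separate male mice on a C57Bl/6 background, bought at 6 to 8 weeks of age and fed for 15 weeks. The groups were the IL-10/IL-4 double knockout on a diet with 60% of its energy from fat (dKO_HFD) and on chow (dKO_chow), the IL-4 knockout on the same diets (IL4KO_HFD, IL4KO_chow) and wild-type mice on both (WT_HFD, WT_chow). Each group had 4 animals except IL4KO_HFD, which had 3. The labels name knockouts and no promoter or cell type, and both knockout genotypes carry the Il4 deletion. The design asked how diet acted in each genotype and how the genotypes differed on each diet.

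MHC class I molecules are found on nearly all cells and present peptides from inside the cell to CD8 T cells. A class I chain folds with beta-2 microglobulin, encoded by B2m, and receives peptides that the Tap1 and Tap2 transporter pumps into the endoplasmic reticulum, with tapasin (Tapbp) bridging the transporter and the class I chain. MHC class II molecules present peptides from taken-up material to CD4 T cells and are made mainly by B cells, dendritic cells and macrophages, which in liver include Kupffer cells. The invariant chain Cd74 escorts class II chains to endosomes, H2-DM exchanges its last fragment for peptide, H2-O restrains H2-DM, and Ciita is the coactivator that turns class II genes on. Both class I and class II genes are known targets of interferon gamma.

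Promoter stretches of 8 members are shown because they carry motifs known from class II and class I promoters. Sequences were taken from RefSeq, build GRCm38.p6, in windows of 250 bases before to 50 bases after each gene's start, and are written 5′ to 3′ on the gene's own strand. In the class II genes, capitals mark the X core GCAAC, the letters RFX binds, and the Y core ATTGG, the inverted CCAAT box that NF-Y binds, where the Y core followed the X core by 20 to 36 bases.
H2-Aa, chr17:34287852-34287929, minus strand, bases -106 to -29 from the start: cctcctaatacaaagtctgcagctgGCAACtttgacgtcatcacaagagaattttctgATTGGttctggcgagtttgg
H2-Eb1, chr17:34305751-34305827, plus strand, bases -116 to -40 from the start: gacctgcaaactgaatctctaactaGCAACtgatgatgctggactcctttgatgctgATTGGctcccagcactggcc
H2-Eb2, chr17:34325518-34325594, plus strand, bases -157 to -81 from the start: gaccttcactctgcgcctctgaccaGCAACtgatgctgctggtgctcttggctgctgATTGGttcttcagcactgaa
H2-Oa, chr17:34092278-34092355, plus strand, bases -101 to -24 from the start: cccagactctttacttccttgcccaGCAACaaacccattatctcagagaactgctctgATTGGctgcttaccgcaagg
H2-Ob, chr17:34238793-34238867, plus strand, bases -112 to -38 from the start: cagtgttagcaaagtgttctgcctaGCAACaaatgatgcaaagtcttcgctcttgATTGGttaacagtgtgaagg
In the 3 class I genes, capitals mark ANNGAAACT, an interferon-response element that reads in reverse complement on the gene strand, and GGGATTCCC, a site of the NF-kB type, where present.
H2-K1, chr17:34000406-34000497, minus strand, bases -150 to -59 from the start: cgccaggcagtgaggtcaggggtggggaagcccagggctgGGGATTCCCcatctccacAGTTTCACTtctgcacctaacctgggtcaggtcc
H2-D1, chr17:35262884-35262975, plus strand, bases -210 to -119 from the start: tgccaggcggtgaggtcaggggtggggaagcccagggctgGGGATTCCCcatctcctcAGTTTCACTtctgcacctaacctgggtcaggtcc
H2-Q10, chr17:35469892-35469965, plus strand, bases -197 to -124 from the start: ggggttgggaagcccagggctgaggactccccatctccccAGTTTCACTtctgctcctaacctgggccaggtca
Both strands were searched, and neither class I motif overlapped the X and Y cores in these windows. The X and Y pair was in 5 of the 34 member genes with a promoter window, each a class II gene, and in 0.865% of 32851 promoters of this length. Not every class II gene had it: H2-DMa, H2-DMb1 and H2-DMb2 had windows that lacked the pair. ANNGAAACT was in 11 of the 34 member genes and in 4.94% of all promoters. GGGATTCCC was in H2-K1, H2-D1, H2-Q6 and H2-Q7 and in 0.353% of all promoters. A match describes letters in a window and is no evidence of binding in these livers.

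Of the 49 members, 31 had enough reads to be tested among 12891 genes, 7 were read in some libraries but fell below the filter, and 11 were at 0 in every library. The 11 were H2-Ea-ps, H2-T3, H2-M1, H2-M9, H2-M11 and the 6 genes H2-M10.1 to H2-M10.6. In C57BL/6 mice the alpha chain gene of I-E is silent, and here H2-Ea-ps was at 0 while its partner H2-Eb1 was read in every library. Among the 7 low members, H2-Eb2 had 1 to 21 counts in dKO_chow against 0 to 3 in WT_chow, and H2-DMb2 had 11 to 47 in dKO_chow against 3 to 6 in WT_chow. H2-Oa had 2 to 42 counts in dKO_chow and 0 to 4 in WT_chow. H2-M2 had 4 to 29 counts in dKO_chow and 0 to 1 in WT_chow, and H2-Bl had 9 to 13 in dKO_chow and 2 to 4 in WT_chow. These counts were not scaled for depth, and the dKO_chow libraries were deeper than those of WT_chow. Scaled for depth (CPM, defined below), H2-Bl overlapped, at 0.269 to 0.622 in dKO_chow and 0.188 to 0.37 in WT_chow. It reached 1.144 in IL4KO_chow and 0.859 in dKO_HFD. With the same scaling H2-DMb2 and H2-M2 still had no overlap between dKO_chow and WT_chow. H2-L had 0 to 14 counts and H2-M5 0 to 1 over all libraries. H2-Ob and H2-Q2 passed the filter only through dKO_chow, so a difference for them was built into their passing.

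Sequencing depth per library, in units of 1e6 counts, was 16.2 to 30.2 for dKO_chow against 10.9 to 12.5 for WT_chow, and the shallowest library of any group had 7.11. Il10 went against its label, with 6 to 21 counts in the libraries labelled dKO_HFD and 41 to 67 in those labelled dKO_chow, against 0 to 4 in WT_HFD and 0 to 2 in WT_chow. Il4 had 0 to 3 counts in every library and so checked nothing. The file sums reads per symbol, so reads from an undeleted part of Il10 cannot be told apart from intact Il10, and each dKO result below is that of libraries labelled dKO. The libraries of dKO_chow stood apart on the first principal component of all genes, at 64.6 to 74.8, and dKO_HFD replicate 4 lay towards them at 43.1 while the other 3 dKO_HFD libraries lay between -17.2 and -10.2. Values below are counts scaled to a common total of 1e6 per library (CPM) after trimmed-mean scaling, given in replicate order, with log2 fold changes and false discovery rates (FDR) from edgeR's quasi-likelihood test adjusted over all 12891 genes. A gene was called at an FDR below 0.05.

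The class II chains formed the clearest pattern: their messages were 2.67 to 2.9 times as abundant in dKO_chow as in WT_chow livers, and the dKO libraries on the high-fat diet overlapped those of the other groups. H2-Aa was at 26.3, 20.1, 24.6 and 54.9 CPM in dKO_HFD, 20.5, 70.6 and 14.6 CPM in IL4KO_HFD and 42.8, 35.2, 41.2 and 31.9 CPM in WT_HFD. On chow, H2-Aa was at 108, 122, 122 and 103 CPM in dKO, 37.2, 35.6, 16.4 and 19.8 CPM in IL4KO and 54.2, 52.4, 28.8 and 34.7 CPM in WT. H2-Aa, the I-A alpha chain gene at chr17:34282744-34287823, had its 4 highest libraries in dKO_chow, with no overlap with any other group. Its mean was 31.5 ± 15.8 CPM in dKO_HFD and 114 ± 9.85 CPM in dKO_chow (SD, n = 4 each), against 42.5 ± 12.7 CPM in WT_chow (SD, n = 4). On the log2 scale H2-Aa rose by 1.42 (SE 0.40, FDR 0.00775) in dKO over WT on chow and by 2.04 (SE 0.41, FDR 0.000707) in dKO over IL4KO on chow. Its diet effect in dKO was a log2 fold change of -1.87 (SE 0.40, FDR 0.00154).

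H2-Ab1 was at 15.2, 15.1, 17.3 and 40.3 CPM in dKO_HFD, 16.8, 49.4 and 9.45 CPM in IL4KO_HFD and 32.8, 24.5, 27.2 and 25.4 CPM in WT_HFD. On chow, H2-Ab1 was at 86.2, 94.8, 89.9 and 78.05 CPM in dKO, 23.6, 24.9, 13.2 and 16.3 CPM in IL4KO and 40.5, 41.6, 19.02 and 23.7 CPM in WT. H2-Ab1, the I-A beta chain gene at chr17:34257689-34269419, again had no dKO_chow library within the range of another group. It rose by a log2 fold change of 1.48 (SE 0.39, FDR 0.0052) in dKO over WT on chow and by 2.14 (SE 0.41, FDR 0.000436) in dKO over IL4KO on chow. Its diet effect in dKO was -2.01 (SE 0.40, FDR 0.000798). H2-Eb1 was at 17.1, 16.1, 20.2 and 41.01 CPM in dKO_HFD, 15.8, 60.02 and 9.58 CPM in IL4KO_HFD and 36.6, 29.1, 29.7 and 24.97 CPM in WT_HFD. On chow, H2-Eb1 was at 91.5, 106, 98.3 and 84.4 CPM in dKO, 25.3, 27.1, 11.7 and 15.2 CPM in IL4KO and 44.95, 41.3, 20.2 and 24.4 CPM in WT. H2-Eb1, the I-E beta chain gene at chr17:34305867-34316674, followed the I-A genes although its partner is silent in this strain. Its log2 fold change was 1.54 (SE 0.43, FDR 0.00718) in dKO over WT on chow, 2.23 (SE 0.45, FDR 0.000641) in dKO over IL4KO on chow and -2.03 (SE 0.43, FDR 0.0014) for diet in dKO.

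Cd74 was at 64.1, 55.7, 66.6 and 144 CPM in dKO_HFD, 53.1, 155 and 39.3 CPM in IL4KO_HFD and 108, 86.5, 96.6 and 83.7 CPM in WT_HFD. On chow, Cd74 was at 262, 289.5, 303 and 254 CPM in dKO, 86.99, 93.5, 40.8 and 58.9 CPM in IL4KO and 146, 135, 72.4 and 90.95 CPM in WT. Cd74, the invariant chain, had 254 CPM or more in dKO_chow and 155 CPM or less everywhere else. It rose by a log2 fold change of 1.32 (SE 0.38, FDR 0.00907) in dKO over WT on chow and by 1.98 (SE 0.39, FDR 0.000557) in dKO over IL4KO on chow. The diet effect in dKO was -1.75 (SE 0.39, FDR 0.00176). Ciita was at 0.677, 0.536, 0.929 and 2.03 CPM in dKO_HFD, 0.229, 1.9 and 0.135 CPM in IL4KO_HFD and 1.04, 0.847, 1.05 and 0.927 CPM in WT_HFD. On chow, Ciita was at 4.31, 4.93, 4.79 and 2.61 CPM in dKO, 0.835, 1.08, 1.43 and 0.139 CPM in IL4KO and 1.11, 1.3, 0.181 and 0.564 CPM in WT. Ciita was low throughout, and its 4 dKO_chow libraries were the highest, above dKO_HFD replicate 4 at 2.03 CPM and IL4KO_HFD replicate 2 at 1.9 CPM. Its log2 fold change was 2.37 (SE 0.51, FDR 0.000794) in dKO over WT on chow, 2.23 (SE 0.52, FDR 0.00162) in dKO over IL4KO on chow and -2.05 (SE 0.47, FDR 0.0017) for diet in dKO.

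The genes of the exchange factor H2-DM moved with the chains. H2-DMa was at 2.26, 1.9, 2.09 and 4.999 CPM in dKO_HFD, 2.06, 7.15 and 1.48 CPM in IL4KO_HFD and 5.14, 3.08, 3.15 and 3.44 CPM in WT_HFD. On chow, H2-DMa was at 9.05, 10.3, 12.2 and 8.92 CPM in dKO, 3.25, 2.8, 1.43 and 1.81 CPM in IL4KO and 5.09, 5.46, 2.45 and 3.85 CPM in WT. The alpha chain gene H2-DMa was highest in the 4 dKO_chow libraries. H2-DMb1 was at 2.33, 1.98, 2.55 and 7.26 CPM in dKO_HFD, 1.83, 8.72 and 2.97 CPM in IL4KO_HFD and 5.42, 5.16, 4.56 and 3.27 CPM in WT_HFD. On chow, H2-DMb1 was at 9.05, 13.9, 15.8 and 10.6 CPM in dKO, 4.92, 3.79, 2.002 and 1.11 CPM in IL4KO and 4.35, 6.85, 3.62 and 3.85 CPM in WT. Both chains of H2-DM, encoded at chr17:34119541-34139101 and chr17:34153072-34160230, had all 4 dKO_chow libraries above every other library. H2-DMa rose by a log2 fold change of 1.26 (SE 0.35, FDR 0.00618) in dKO over WT on chow, and its diet effect in dKO was -1.89 (SE 0.36, FDR 0.000364). H2-DMb1 rose by 1.39 (SE 0.42, FDR 0.0116) in dKO over WT on chow, and its diet effect in dKO was -1.85 (SE 0.43, FDR 0.00203). Of the 50-base stretches of H2-DMb1, 22.7% are also in H2-DMb2, so reads may be split between them. With the counts of both summed the log2 fold change in dKO over WT on chow was 1.36 (SE 0.41, FDR 0.0109). H2-Ob, a chain of the inhibitor H2-O, was called in dKO over IL4KO on chow at 1.93 (SE 0.46, FDR 0.00192) and for diet in dKO at -1.28 (SE 0.37, FDR 0.00944). H2-Ob passed the filter only through dKO_chow, so both differences were built into its passing. The diet call was lost without dKO_HFD replicate 2 (FDR 0.0517) and with limma on the deposited log2 values (FDR 0.119). Its value in dKO over WT on chow was 0.83 (SE 0.38, FDR 0.0811), not a call.

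**Figure D1:**
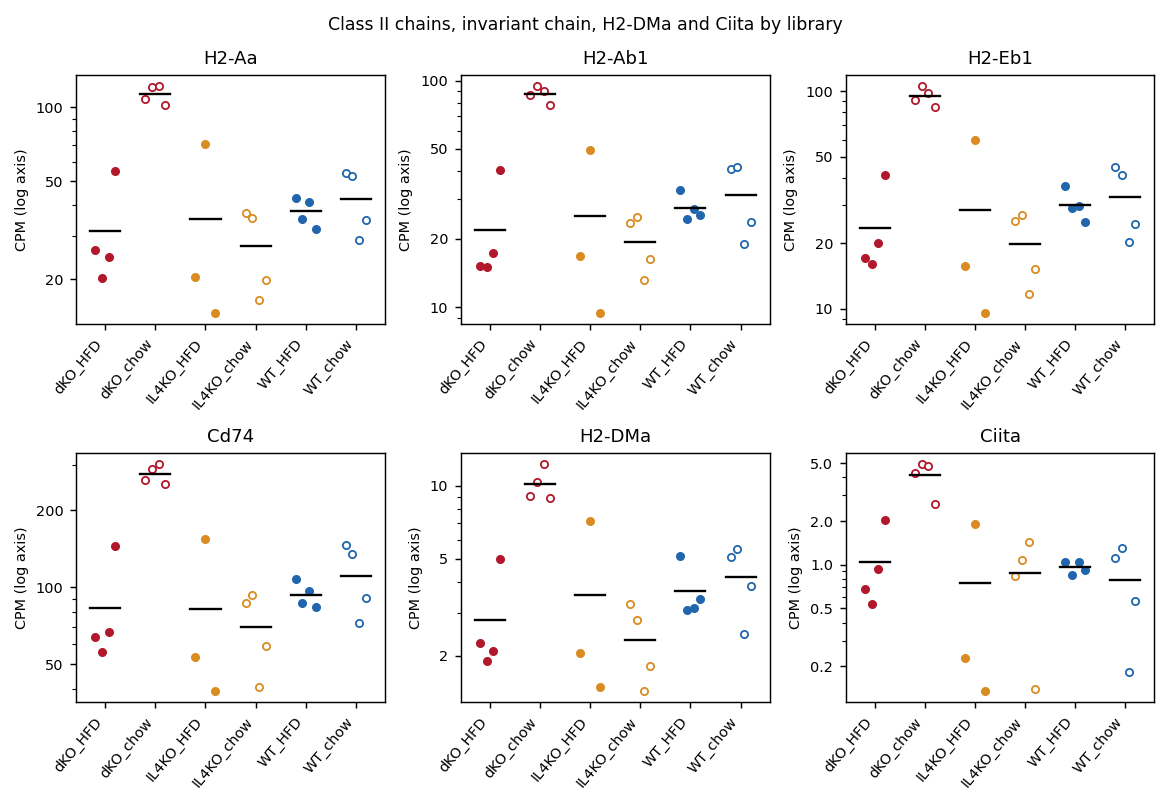
Each panel plots one class II pathway gene in CPM, on a log axis, for every library of the 6 groups, with dKO in red, IL4KO in orange and WT in blue, filled circles for HFD, open circles for chow and a black line at the group mean. The 4 dKO_chow libraries lie above all others for H2-Aa, H2-Ab1, H2-Eb1, Cd74, H2-DMa and Ciita, and dKO_HFD replicate 4 and IL4KO_HFD replicate 2 lie above the rest of their groups.

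The messages of H2-Aa, H2-Ab1, H2-Eb1, Cd74 and H2-DMa kept nearly fixed proportions to each other while their level moved. Those of H2-DMb1 and Ciita did not. H2-DMb1 was at 1.11 CPM beside H2-Aa at 19.8 CPM in IL4KO_chow replicate 4. In IL4KO_HFD replicate 3 it was at 2.97 CPM beside 14.6 CPM. Ciita was at 1.43 CPM beside 16.4 CPM in IL4KO_chow replicate 3 and 0.181 CPM beside 28.8 CPM in WT_chow replicate 3. These values rest on few counts. Over all 23 libraries the ratio of H2-Ab1 to H2-Aa lay between 0.579 and 0.824, that of H2-Eb1 to H2-Aa between 0.65 and 0.871 and that of H2-Aa to Cd74 between 0.336 and 0.457. The ratio of H2-DMa to H2-Aa lay between 0.0765 and 0.12. By contrast, the ratio of Cd74 to B2m, class II over class I, was 0.153 to 0.189 in dKO_chow and 0.0505 to 0.0828 in WT_chow. Per kilobase of exon, the levels of 9 members in WT_chow ran from B2m at 1841 ± 169 CPM per kb through H2-Q10 at 919 ± 98.7, H2-K1 at 818 ± 90.3 and H2-D1 at 241 ± 37.2. Next came Cd74 at 78.7 ± 24.8, H2-Aa at 37.7 ± 11.2, H2-Ab1 at 25.7 ± 9.52, H2-Eb1 at 19.6 ± 7.33 and Ciita at 0.132 ± 0.0854 (SD, n = 4). On that scale H2-Ab1 and H2-Eb1 differed by less than the SD of either, and the spans of mean ± SD of H2-Q10 and H2-K1 overlapped, while the steps from B2m to H2-Q10, from H2-K1 to H2-D1 and from H2-D1 to Cd74 were larger than both SDs.

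On the high-fat diet no class II chain or partner was called between genotypes with all libraries in the fit. In dKO over WT on HFD, H2-Aa stood at -0.27 (SE 0.40, FDR 0.655), H2-Ab1 at -0.34 (SE 0.40, FDR 0.568), Cd74 at -0.18 (SE 0.38, FDR 0.759) and H2-DMa at -0.45 (SE 0.38, FDR 0.405). Within dKO_HFD, replicate 4 stood above the other 3 libraries for H2-Aa, H2-Ab1, H2-Eb1, Cd74, Ciita, H2-DMa and H2-DMb1, though not for the low H2-Ob, and its summed Kupffer markers were 705 CPM against 301 to 418 CPM in the other 3. IL4KO_HFD replicate 2 stood apart in the same way, at 574 CPM of Kupffer markers against 299 and 372 CPM. Other marker lists stood apart in these libraries too. The cholangiocyte sum was 332 CPM in dKO_HFD replicate 4, against 125 to 178 CPM in the rest of its group. In IL4KO_HFD replicate 2 it was 182.5 CPM, against 60.7 and 62.6 CPM. Without dKO_HFD replicate 4, H2-Ab1 was at -0.79 (FDR 0.152) and H2-DMa at -0.85 (FDR 0.102) in dKO over WT on HFD, still not calls. Without both of these libraries, a step added after seeing the data, H2-Ab1 was called lower at -0.80 (FDR 0.0346), H2-DMa at -0.86 (FDR 0.0173) and H2-DMb1 at -1.01 (FDR 0.0291). H2-Aa at -0.69 (FDR 0.0653) and Cd74 at -0.60 (FDR 0.0988) remained uncalled. IL4KO_HFD replicate 2 is in neither group of this comparison, and leaving it out changes the shared estimate of the spread and the set of genes tested. In WT and IL4KO mice the diet itself called no class II member, with H2-Aa at -0.17 (SE 0.40, FDR 0.81) in WT and 0.36 (SE 0.45, FDR 0.665) in IL4KO.

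The diet effect itself was compared between genotypes with an interaction term. The diet effect on H2-Aa in dKO minus that in WT was -1.69 (SE 0.57, FDR 0.0373), on H2-Eb1 -1.90 (SE 0.61, FDR 0.0311), and on Cd74 -1.50 (SE 0.54, FDR 0.0481). The same difference was -2.32 (SE 0.76, FDR 0.0303) for Ciita and -1.71 (SE 0.52, FDR 0.0221) for H2-DMa. These calls sat near the threshold. That of H2-Aa was lost without dKO_HFD replicate 1, 2 or 3 or dKO_chow replicate 2 or 3 or WT_HFD replicate 1 or 3 or WT_chow replicate 3 or 4 (FDR 0.0564 to 0.0834). That of H2-Aa was also lost with no filter on low counts (FDR 0.0534) and with counts thinned to the smallest library (FDR 0.0579). That of H2-DMa was lost without dKO_HFD replicate 2 or WT_HFD replicate 1 (FDR 0.055 to 0.0583). The call of Cd74 was lost under 16 of 25 alternatives, that of H2-Eb1 under 7 and that of Ciita under 6. Against IL4KO the differences were -2.23 (SE 0.60, FDR 0.0135) for H2-Aa, -2.53 (SE 0.65, FDR 0.0104) for H2-Eb1 and -1.98 (SE 0.56, FDR 0.0168) for Cd74. Those against IL4KO held in every alternative but one, being lost for H2-Aa, H2-Ab1, H2-Eb1, Cd74, H2-DMa and H2-DMb1 without IL4KO_HFD replicate 2, where H2-Aa stood at -1.21 (FDR 0.134) and Cd74 at -1.14 (FDR 0.134). Ciita, at -1.885, and H2-Ob, at -1.32, were not called in the difference against IL4KO. The chow comparisons and the diet effect in dKO use the same 4 dKO_chow libraries and are not separate evidence.

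In dKO over WT on chow and for diet in dKO, Kupffer cell markers moved with the class II genes. So did monocyte and macrophage, neutrophil, T and NK cell and cholangiocyte markers. On HFD the cholangiocyte list parted from the class II genes, with 8 higher and 0 lower of 9 tested in dKO over WT. Of all genes, 12.9% were higher and 11.6% lower there. The cholangiocyte sum was 125 to 332 CPM in dKO_HFD and 81.7 to 117 CPM in WT_HFD. Many of the dendritic, neutrophil and T and NK cell markers passed the filter only through dKO_chow. Of the B and plasma cell list, 1 of 3 tested was called higher in dKO over WT on chow and 3 lower for diet in dKO. Of all genes tested, 24.4% were higher and 21.9% lower in dKO over WT on chow, and 19.4% higher and 20.5% lower for diet in dKO. Of the Kupffer cell list, 10 higher and 0 lower of 11 tested passed the test in dKO over WT on chow and 0 higher and 10 lower of 11 tested for diet in dKO. The summed Kupffer list was 301 to 705 CPM in dKO_HFD, 858 to 1122 in dKO_chow, 299 to 574 in IL4KO_HFD, 319.5 to 440.4 in IL4KO_chow, 444 to 519.8 in WT_HFD and 327 to 588 in WT_chow. Vsig4, a Kupffer complement receptor, averaged 62.4 ± 7.004 CPM in dKO_chow against 29.3 ± 8.3 CPM in WT_chow (log2 fold change 1.09, FDR 0.000607). Cd163, a scavenger receptor, averaged 60.8 ± 13.3 CPM in dKO_chow against 20.2 ± 5.67 CPM in WT_chow (log2 fold change 1.58, FDR 0.000291). The dendritic cell list had 5 higher and 0 lower of 8 tested in dKO over WT on chow and 0 higher and 4 lower of 8 tested for diet in dKO. Of its 8 tested markers, 5, Xcr1 among them, passed the filter only through dKO_chow, so a difference was built into their passing. Of the other 3, 1 was higher on chow and 1 lower for diet. Its sum was 7.83 to 12.3 CPM in dKO_HFD, 14.7 to 20.6 in dKO_chow, 8.23 to 17.3 in IL4KO_HFD, 8.91 to 11.7 in IL4KO_chow, 8.94 to 12.03 in WT_HFD and 8.7 to 11.3 in WT_chow. Xcr1, the chemokine receptor of cross-presenting dendritic cells, averaged 0.876 ± 0.127 CPM in dKO_chow against 0.153 ± 0.106 CPM in WT_chow (log2 fold change 2.43, FDR 0.00971). Itgax, which encodes CD11c, averaged 3.87 ± 1.58 CPM in dKO_chow against 0.833 ± 0.37 CPM in WT_chow (log2 fold change 2.22, FDR 0.00284).

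The monocyte and macrophage list had 11 higher and 1 lower of 13 tested in dKO over WT on chow and 1 higher and 10 lower of 13 tested for diet in dKO. Its sum was 194 to 254 CPM in dKO_HFD, 364 to 492 in dKO_chow and 171 to 319.7 in WT_chow. Neutrophil markers had 11 higher and 0 lower of 11 tested in dKO over WT on chow and 0 higher and 11 lower of 11 tested for diet in dKO. Of these 11, 6 passed the filter only through dKO_chow, and the other 5 were all called in both comparisons. They summed to 2.86 to 66 CPM in dKO_HFD, 146 to 481 in dKO_chow and 2.72 to 29.6 in WT_chow, where Ly6g was at 0 in every library. T and NK cell markers had 9 higher and 0 lower of 11 tested in dKO over WT on chow and 0 higher and 9 lower of 11 tested for diet in dKO, with a sum of 4.22 to 14.6 CPM in dKO_HFD, 16.9 to 27.8 CPM in dKO_chow and 4.71 to 9.46 in WT_chow. Of the 11 tested, 6 passed only through dKO_chow, and of the other 5, 4 were higher on chow and 3 lower for diet. Of the 12 B and plasma cell markers 3 could be tested, with 1 higher in dKO over WT on chow and all 3 lower for diet in dKO. The list summed to 239.9 to 310.0 CPM in dKO_chow and 242 to 301 in WT_chow, mostly Sdc1, which hepatocytes also express, at a mean of 247 CPM in dKO_chow and 271 CPM in WT_chow. Jchain, the plasma cell J chain, was the marker called higher, at a mean of 8.79 CPM in dKO_chow and 2.40 CPM in WT_chow. Cholangiocyte markers had 9 higher and 0 lower of 9 tested, and stellate markers 3 higher and 1 lower of 10 tested, in the same comparison. The stellate share higher stood near that of all genes. Of the 9 cholangiocyte markers, 2 passed only through dKO_chow, and the other 7 were all higher. The cholangiocyte sum was 493 to 869 CPM in dKO_chow and 58.97 to 64.4 in WT_chow, and the stellate sum 331 to 432 CPM in dKO_chow and 311 to 376 in WT_chow. Endothelial markers had 1 higher and 3 lower of 11 tested and hepatocyte markers 0 higher and 8 lower of 12 tested in dKO over WT on chow. The endothelial sum was 435 to 510.1 CPM in dKO_chow and 501 to 523 in WT_chow. The hepatocyte sum was 83411 to 95615 CPM in dKO_chow and 120720.0 to 127660.0 CPM in WT_chow.

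Cd74 was also set against those markers. Its ratio to the summed Kupffer list was 0.238 to 0.337 in dKO_chow and 0.184 to 0.248 in WT_chow, and its ratio to Csf1r was 1.62 to 2.08 in dKO_chow and 1.29 to 1.99 in WT_chow. Its ratio to the summed dendritic list was 14.7 to 17.3 in dKO_chow and 8.07 to 15.1 in WT_chow, and the ranges of all 3 ratios overlapped between these groups. In dKO_HFD the ratios were 0.159 to 0.213 to the Kupffer list, 1.18 to 1.46 to Csf1r and 6.71 to 11.7 to the dendritic list, each range wholly below that of dKO_chow. In whole liver, more cells of a type and more RNA per cell cannot be told apart, and the part of these cells in the class II result was not tested.

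**Figure D2:**
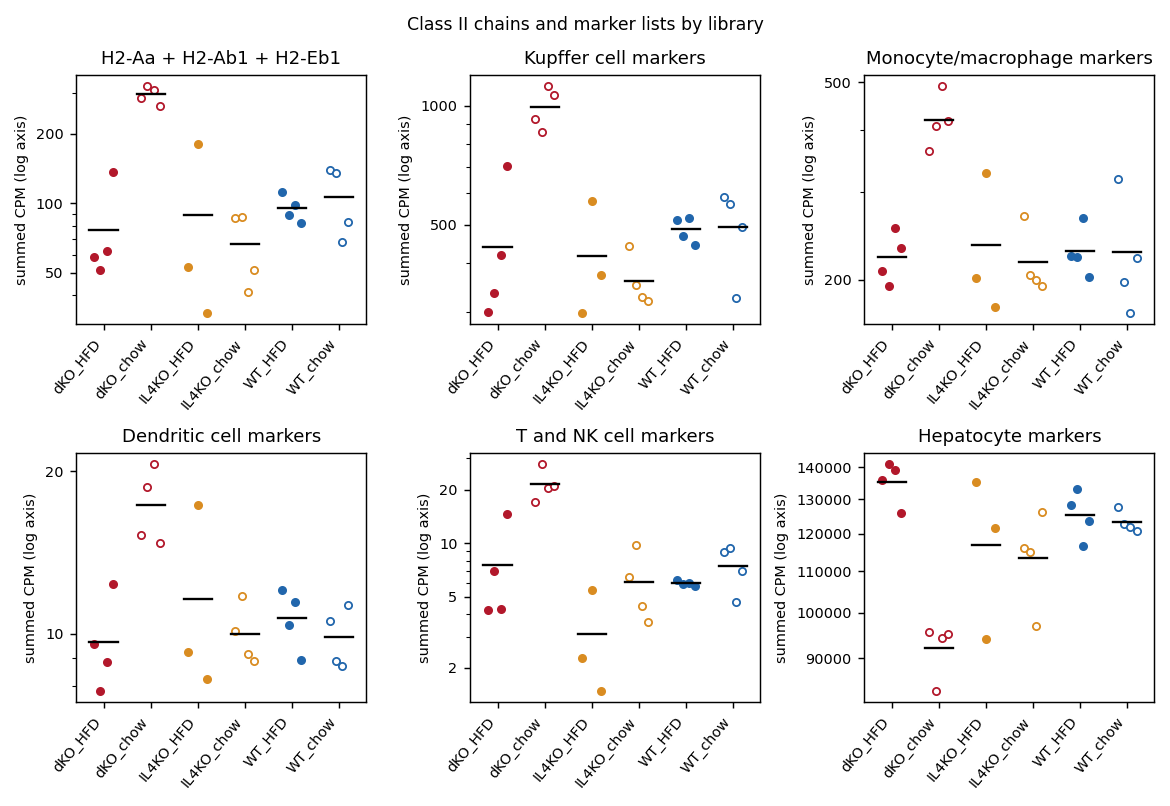
Summed CPM of H2-Aa, H2-Ab1 and H2-Eb1 and of 5 marker lists for every library of the 6 groups, on log axes, with the colours and symbols of the class II plot. The hepatocyte list is at 83411 to 95615 CPM in dKO_chow, below every WT_chow library and overlapping IL4KO_HFD, and the dKO_chow libraries are highest for the Kupffer list at 858 to 1122 CPM, against 327 to 588 CPM in WT_chow.

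The classical class I heavy chains and B2m were not called between dKO and WT on chow. H2-K1 was at 1168, 1085, 1161 and 1026 CPM in dKO_HFD, 1291, 1243 and 1229 CPM in IL4KO_HFD and 1352, 1415, 1417 and 1329 CPM in WT_HFD. On chow, H2-K1 was at 1284, 1260.0, 1232 and 1297 CPM in dKO, 1567, 1350.0, 1307 and 1338 CPM in IL4KO and 1497, 1393, 1195 and 1211 CPM in WT. H2-K1, which encodes the K heavy chain at chr17:33996017-34000347, was not called in dKO over WT on chow, at -0.062 (SE 0.087, FDR 0.589). On HFD it was lower in dKO than in WT, at -0.31 (SE 0.088, FDR 0.0125), with no overlap. This call was lost with only the compared groups in the fit (FDR 0.0561). H2-D1 was at 438, 387, 476 and 511 CPM in dKO_HFD, 514, 618 and 472 CPM in IL4KO_HFD and 579, 587, 609 and 563 CPM in WT_HFD. On chow, H2-D1 was at 575, 601, 595 and 563 CPM in dKO, 552, 483, 504 and 458 CPM in IL4KO and 562, 579, 411 and 476 CPM in WT. H2-D1, the D heavy chain at chr17:35262730-35267499, was called lower for diet in dKO at -0.36 (SE 0.11, FDR 0.0101) and in dKO over WT on HFD at -0.37 (SE 0.11, FDR 0.0165). Both were lost without dKO_HFD replicate 2, at FDR 0.0564 and 0.0658. Its value in dKO over WT on chow was 0.20 (SE 0.11, FDR 0.129).

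B2m was at 1670.0, 1566, 1664 and 1613 CPM in dKO_HFD, 1650.0, 1899 and 1590.0 CPM in IL4KO_HFD and 1853, 1782, 2035 and 1926 CPM in WT_HFD. On chow, B2m was at 1718, 1533, 1624 and 1519 CPM in dKO, 1817, 1643, 1655 and 1592 CPM in IL4KO and 1763, 1632, 1434 and 1504 CPM in WT. B2m, the light chain that all class I molecules share, lay at chr2:122147686-122153083 and was per kilobase the highest of the members set out above. It was called for diet in WT, at 0.26 (SE 0.089, FDR 0.0413), with all 4 WT_HFD libraries above WT_chow. This call was lost without WT_HFD replicate 1, 3 or 4 or WT_chow replicate 2, 3 or 4 (FDR 0.0711 to 0.139). This call was also lost with no filter on low counts (FDR 0.0607), with only the compared groups in the fit (FDR 0.0516), with limma on the deposited log2 values (FDR 0.0546) and with counts thinned to the smallest library (FDR 0.0564). It was at 0.014 (SE 0.089, FDR 0.913) in dKO over WT on chow and at -0.22 (SE 0.089, FDR 0.0728) in dKO over WT on HFD. The dKO_HFD libraries all lay below the WT_HFD libraries without a call.

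**Figure D3:**
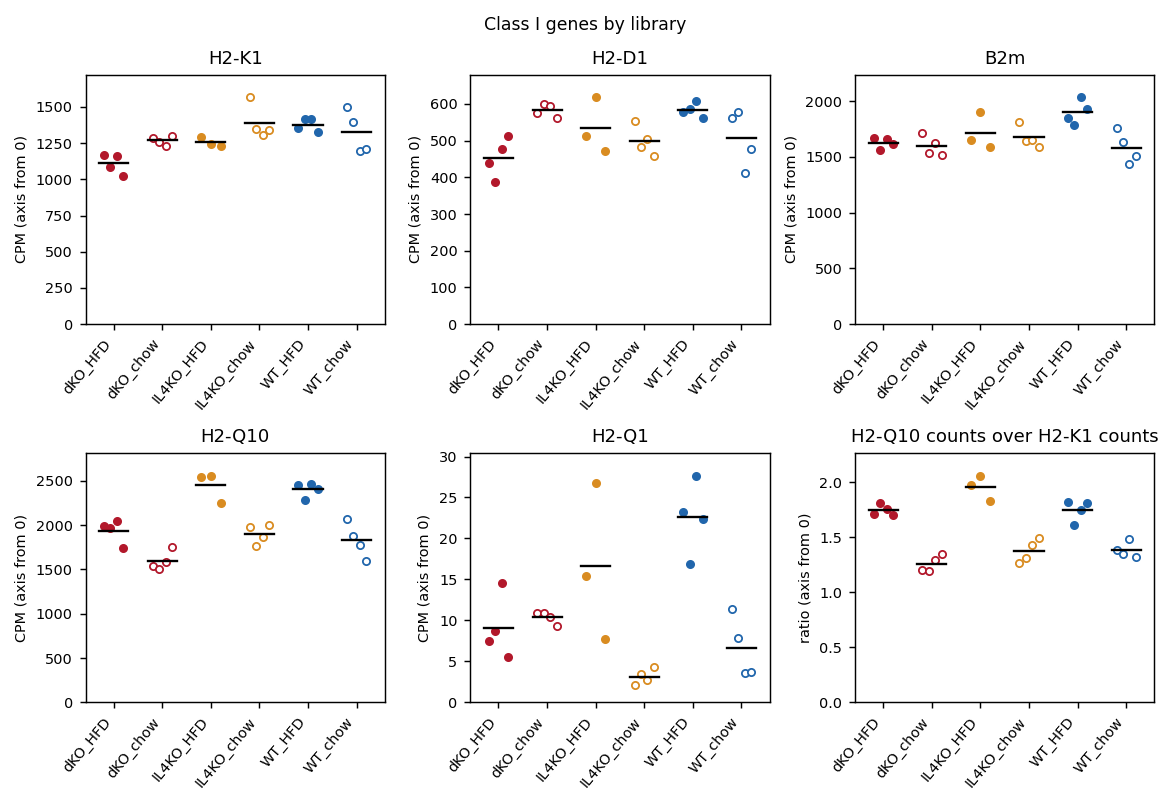
CPM of H2-K1, H2-D1, B2m, H2-Q10 and H2-Q1, and the ratio of H2-Q10 to H2-K1 counts, for every library of the 6 groups on axes from 0, with the colours and symbols of the class II plot. H2-K1, H2-D1 and B2m overlap between dKO_chow and WT_chow, and the H2-Q10 ratio is higher in every HFD library than in every chow library.

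The peptide loading genes were also higher in dKO_chow, with smaller fold changes than the class II genes. Tap1 was at 32.97, 29.96, 20.2 and 36.4 CPM in dKO_HFD, 20.2, 28.3 and 31.6 CPM in IL4KO_HFD and 31.6, 26.02, 28.9 and 32.1 CPM in WT_HFD. On chow, Tap1 was at 40.7, 38.95, 44.1 and 34.9 CPM in dKO, 30.4, 28.6, 24.02 and 28.3 CPM in IL4KO and 30.5, 28.5, 21.6 and 21.8 CPM in WT. Tap1 was called at 0.63 (SE 0.15, FDR 0.00249) in dKO over WT on chow, with no overlap, and at -0.41 (SE 0.15, FDR 0.0339) for diet in dKO, where the groups overlapped. The diet call was lost without dKO_HFD replicate 2 or 3 or dKO_chow replicate 1, 2 or 3 (FDR 0.0578 to 0.144). The diet call was also lost with no filter on low counts (FDR 0.0578) and with only the compared groups in the fit (FDR 0.0789). Tap2 was at 29.96, 28.1, 24.98 and 35.4 CPM in dKO_HFD, 28.1, 30.9 and 29.01 CPM in IL4KO_HFD and 34.9, 33.95, 30.7 and 31.9 CPM in WT_HFD. On chow, Tap2 was at 39.3, 42.3, 45.8 and 39.1 CPM in dKO, 27.9, 29.3, 23.4 and 22.98 CPM in IL4KO and 33.02, 37.6, 30.2 and 27.1 CPM in WT. Tap2 was called at 0.38 (SE 0.10, FDR 0.00477) in dKO over WT on chow and at -0.50 (SE 0.10, FDR 0.000647) for diet in dKO, and dKO_chow held its 4 highest libraries. Tapbp was at 73.4, 75, 75.4 and 108 CPM in dKO_HFD, 84.3, 86.3 and 78.1 CPM in IL4KO_HFD and 89.5, 86.3, 93.8 and 90.9 CPM in WT_HFD. On chow, Tapbp was at 131, 132, 133 and 133 CPM in dKO, 94.4, 89.7, 91.5 and 81.9 CPM in IL4KO and 95.5, 111, 87.4 and 84.9 CPM in WT. Tapbp was called at 0.48 (SE 0.10, FDR 0.000447) in dKO over WT on chow and at -0.68 (SE 0.10, FDR 2.62e-05) for diet in dKO, and dKO_chow again held the 4 highest libraries.

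Class Ib genes of the Q region split into several patterns. H2-Q6, H2-Q7, H2-Q8 and H2-Q9 encode or resemble the Qa-2 antigens. Of the 50-base stretches of H2-Q6 27% were found in some other member, and of those of H2-Q7 25.1%, so reads may be split among members. H2-Q7 was at 18.1, 19.3, 21.7 and 37.4 CPM in dKO_HFD, 16.5, 19.6 and 22.8 CPM in IL4KO_HFD and 17.2, 19.5, 17.4 and 17.5 CPM in WT_HFD. On chow, H2-Q7 was at 51.5, 51.8, 47.6 and 50.8 CPM in dKO, 35.1, 31.9, 31.2 and 24.2 CPM in IL4KO and 28.2, 23.7, 15.7 and 13.3 CPM in WT. H2-Q7 had all 4 dKO_chow libraries above every other library, at 1.31 (SE 0.21, FDR 6.43e-05) in dKO over WT on chow and -1.07 (SE 0.20, FDR 0.000454) for diet in dKO. H2-Q8 was at 3.61, 4.78, 4.88 and 10.3 CPM in dKO_HFD, 3.89, 0.894 and 1.08 CPM in IL4KO_HFD and 4.52, 3.39, 1.99 and 4.85 CPM in WT_HFD. On chow, H2-Q8 was at 9.72, 12.1, 10.1 and 9.2 CPM in dKO, 7.23, 7.59, 6.15 and 6.83 CPM in IL4KO and 6.1, 4.97, 4.89 and 2.44 CPM in WT. H2-Q8 was called at 1.16 (SE 0.33, FDR 0.00691) in dKO over WT on chow. This call was lost with counts thinned to the smallest library (FDR 0.064). Its diet effects were -0.82 (SE 0.31, FDR 0.0412) in dKO and -1.81 (SE 0.44, FDR 0.0146) in IL4KO. The call in dKO was lost without dKO_HFD replicate 1, 2 or 3 or dKO_chow replicate 1, 2, 3 or 4 (FDR 0.0569 to 0.124). The call in dKO was also lost with no filter on low counts (FDR 0.0649), with limma on the deposited log2 values (FDR 0.0534) and with counts thinned to the smallest library (FDR 0.123). The call in IL4KO was lost without IL4KO_HFD replicate 2 (FDR 0.135).

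H2-Q9 was at 11.9, 13.7, 14.2 and 25.7 CPM in dKO_HFD, 10.9, 7.49 and 14.4 CPM in IL4KO_HFD and 8.97, 12.2, 6.54 and 9.54 CPM in WT_HFD. On chow, H2-Q9 was at 32.6, 34.5, 30.9 and 29.6 CPM in dKO, 25.7, 19.7, 19.6 and 20.9 CPM in IL4KO and 16.1, 20.7, 9.33 and 14.7 CPM in WT. H2-Q9 had its 4 highest libraries in dKO_chow, at 1.07 (SE 0.23, FDR 0.00108) over WT on chow and -0.98 (SE 0.23, FDR 0.00222) for diet in dKO. It was the one member higher in dKO over WT on HFD, at 0.78 (SE 0.25, FDR 0.0256). This call was lost without dKO_HFD replicate 4 or WT_HFD replicate 1, 3 or 4 (FDR 0.0556 to 0.0974). This call was also lost with only the compared groups in the fit (FDR 0.0707) and without dKO_HFD replicate 4 and IL4KO_HFD replicate 2 together (FDR 0.0761). H2-Q6 was at 1.28, 0.865, 0.325 and 0.234 CPM in dKO_HFD, 0.457, 3.91 and 4.59 CPM in IL4KO_HFD and 0.0695, 1.001, 0 and 0.327 CPM in WT_HFD. On chow, H2-Q6 was at 1.53, 2.09, 0.584 and 1.26 CPM in dKO, 0.0927, 0.0903, 0.429 and 0 CPM in IL4KO and 0.278, 0.408, 0.0906 and 1.31 CPM in WT. H2-Q6 swung widely: it was called at 3.25 (SE 1.01, FDR 0.0129) in dKO over IL4KO on chow, at 4.32 (SE 1.02, FDR 0.012) for diet in IL4KO and at 2.98 (SE 0.81, FDR 0.0469) in IL4KO over WT on HFD. The diet call was lost without IL4KO_HFD replicate 2 (FDR 0.077) and without dKO_HFD replicate 4 and IL4KO_HFD replicate 2 together (FDR 0.0602). The call over WT on HFD was lost without IL4KO_HFD replicate 2 or 3 or WT_HFD replicate 1, 3 or 4 (FDR 0.088 to 0.179). The call over WT on HFD was also lost with no filter on low counts (FDR 0.0721), with limma on the deposited log2 values (FDR 0.121), without dKO_HFD replicate 4 and IL4KO_HFD replicate 2 together (FDR 0.09) and with related genes summed (FDR 0.784).

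Summing the counts of H2-Q6 to H2-Q9, which does not depend on which of the 4 a read was assigned to, gave a single pattern. It does not settle reads shared with members outside the sum. Of the 50-base stretches of H2-Q7, 14% are also in H2-Q10, and of those of H2-Q5, 25.5% are in H2-Q7. Sharing by H2-Q8 and H2-Q9 was not measured. The sum was 34.7, 38.5, 41.3 and 73.9 CPM in dKO_HFD, 31.7, 32 and 42.8 CPM in IL4KO_HFD and 30.9, 36.1, 26.1 and 32.2 CPM in WT_HFD. On chow the sum was 94.7, 99.7, 89.3 and 90.2 CPM in dKO, 68, 59.1, 57.1 and 52.1 CPM in IL4KO and 50.9, 50.1, 30.5 and 31.7 CPM in WT. It rose by 1.20 (SE 0.20, FDR 0.000119) in dKO over WT on chow and by 0.66 (SE 0.20, FDR 0.0118) in dKO over IL4KO on chow. It was lower on HFD in dKO, at -0.99 (SE 0.20, FDR 0.000754), and in IL4KO, at -0.74 (SE 0.23, FDR 0.0485). In WT the diet value was -0.38 (SE 0.21, FDR 0.216), and the difference of diet effects between dKO and WT was -0.62 (SE 0.29, FDR 0.117), neither a call. The diet effect in IL4KO was thus negative for the sum and positive for H2-Q6. That call of the sum was lost without any of 6 IL4KO libraries left out singly, at -0.80 to -0.67 (FDR 0.0565 to 0.239). In dKO over WT on HFD the sum was at 0.58 (SE 0.20, FDR 0.0453), with dKO_HFD replicate 4 above the other 3. Without that library it was 0.28 (FDR 0.215), not a call. The call was also lost without WT_HFD replicate 1, 3 or 4 (FDR 0.0819 to 0.112).

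**Figure D4:**
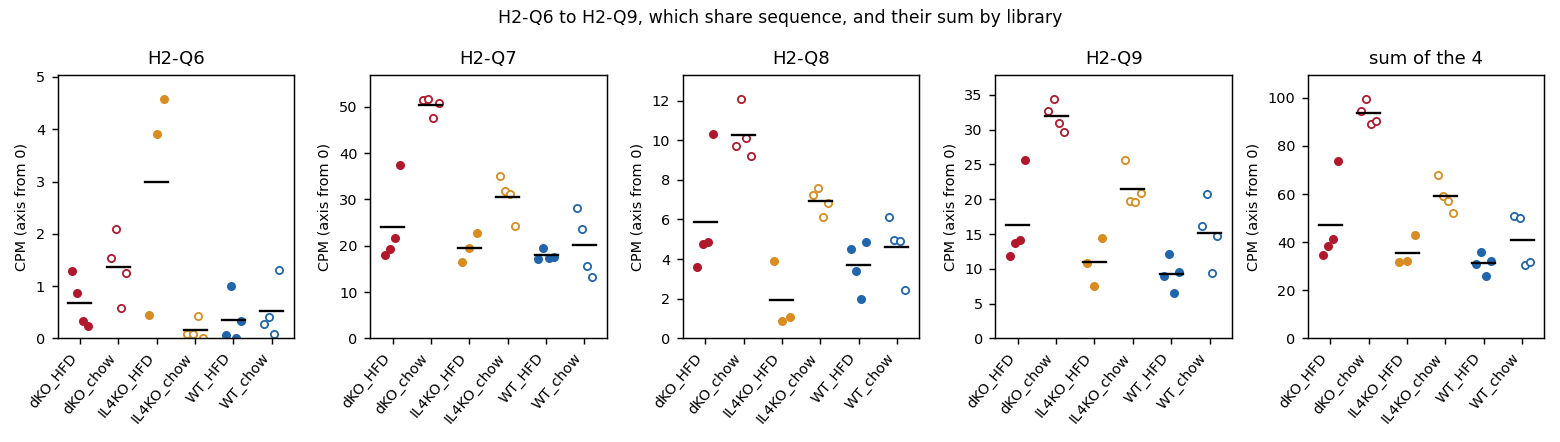
CPM of H2-Q6, H2-Q7, H2-Q8, H2-Q9 and of their sum for every library of the 6 groups, with the colours and symbols of the class II plot. Single genes differ in their order of groups, while the sum is highest in dKO_chow at 89.3 to 99.7 CPM, against 30.5 to 50.9 CPM in WT_chow.

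H2-Q10, a class I molecule that hepatocytes secrete, was the member called higher on HFD in all 3 genotypes. H2-Q10 was at 1994, 1962, 2041 and 1746 CPM in dKO_HFD, 2542, 2559 and 2247 CPM in IL4KO_HFD and 2455, 2283, 2469 and 2407 CPM in WT_HFD. On chow, H2-Q10 was at 1542, 1507, 1587 and 1753 CPM in dKO, 1983, 1769, 1861 and 1999 CPM in IL4KO and 2067, 1881, 1777 and 1597 CPM in WT. Its log2 fold change for diet was 0.28 (SE 0.093, FDR 0.0212) in dKO, 0.36 (SE 0.10, FDR 0.0248) in IL4KO and 0.39 (SE 0.093, FDR 0.00528) in WT. The WT call held under every alternative run. The dKO call was lost without dKO_HFD replicate 1 or 3 or dKO_chow replicate 1 or 2 (FDR 0.0524 to 0.0622). The dKO call was also lost with upper quartile scaling (FDR 0.0869), with only the compared groups in the fit (FDR 0.0712) and with limma on the deposited log2 values (FDR 0.0915). The IL4KO call was lost without IL4KO_HFD replicate 1 or 2 or IL4KO_chow replicate 2 or 3 (FDR 0.0597 to 0.119). The IL4KO call was also lost with only the compared groups in the fit (FDR 0.0955) and without dKO_HFD replicate 4 and IL4KO_HFD replicate 2 together (FDR 0.0529). H2-Q10 was lower in dKO over WT on HFD, at -0.31 (SE 0.093, FDR 0.0179). That call was lost with only the compared groups in the fit (FDR 0.0734). The ratio of H2-Q10 to H2-K1 separated the diets in each genotype, at 1.7 to 1.81 in dKO_HFD and 1.2 to 1.35 in dKO_chow. It was 1.83 to 2.06 in IL4KO_HFD and 1.26 to 1.49 in IL4KO_chow, and 1.61 to 1.82 in WT_HFD and 1.32 to 1.49 in WT_chow.

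H2-Q1, another class I gene of the Q region, rose on the high-fat diet in IL4KO and WT. H2-Q1 was at 7.45, 8.65, 14.6 and 5.55 CPM in dKO_HFD, 15.4, 26.7 and 7.69 CPM in IL4KO_HFD and 23.3, 16.9, 27.7 and 22.4 CPM in WT_HFD. On chow, H2-Q1 was at 10.9, 10.9, 10.4 and 9.34 CPM in dKO, 2.13, 3.43, 2.72 and 4.32 CPM in IL4KO and 11.4, 7.91, 3.53 and 3.66 CPM in WT. Every HFD library lay above every chow library in IL4KO and in WT, while the dKO groups overlapped. Its diet effect was 2.43 (SE 0.45, FDR 0.00317) in IL4KO, 1.76 (SE 0.37, FDR 0.00288) in WT and -0.17 (SE 0.35, FDR 0.725) in dKO. The dKO effect minus that in IL4KO was -2.60 (SE 0.57, FDR 0.0043) and minus that in WT -1.93 (SE 0.50, FDR 0.0117), and both differences were called under every alternative run. H2-Q1 was at -1.29 (SE 0.35, FDR 0.0114) in dKO over WT on HFD, without overlap. On chow it was called higher in dKO over IL4KO, at 1.74 (FDR 0.00251), also without overlap and under every alternative run. The dKO_chow libraries enter the differences of diet effects as well.

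H2-Q4 was at 19.1, 22.01, 24.1 and 41.5 CPM in dKO_HFD, 24.8, 33.9 and 22.9 CPM in IL4KO_HFD and 38.9, 42.1, 36.2 and 39.9 CPM in WT_HFD. On chow, H2-Q4 was at 49.4, 53.4, 49.02 and 43.3 CPM in dKO, 31.7, 32.1, 28.3 and 23.1 CPM in IL4KO and 38.9, 42.2, 30.3 and 34.3 CPM in WT. H2-Q4 had dKO_chow above dKO_HFD and IL4KO_chow without overlap, with a diet effect in dKO of -0.88 (SE 0.18, FDR 0.000661) and a value of 0.75 (SE 0.18, FDR 0.00206) in dKO over IL4KO on chow. It was at -0.57 (SE 0.18, FDR 0.0252) in dKO over WT on HFD. This call was lost without dKO_HFD replicate 1, 2 or 3 or WT_HFD replicate 2 or 4 (FDR 0.0534 to 0.0832). This call was also lost with only the compared groups in the fit (FDR 0.113). H2-Q5 was at 2.94, 3.54, 3.2 and 6.48 CPM in dKO_HFD, 2.97, 2.35 and 3.37 CPM in IL4KO_HFD and 3.89, 4.31, 4.32 and 4.36 CPM in WT_HFD. On chow, H2-Q5 was at 5.46, 7.02, 7.24 and 4.95 CPM in dKO, 3.06, 2.98, 3.29 and 4.74 CPM in IL4KO and 4.35, 4.73, 2.99 and 3.19 CPM in WT. H2-Q5, annotated as a polymorphic pseudogene, was called at 0.69 (SE 0.22, FDR 0.0132) in dKO over WT on chow. This call was lost without WT_chow replicate 3 or 4 (FDR 0.0502 to 0.0568) and with counts thinned to the smallest library (FDR 0.0578). H2-Q2 was at 0.0753, 0.165, 0.186 and 0.156 CPM in dKO_HFD, 0.114, 0.112 and 0 CPM in IL4KO_HFD and 0.209, 0.231, 0.117 and 0.273 CPM in WT_HFD. On chow, H2-Q2 was at 1.29, 1.28, 1.63 and 0.84 CPM in dKO, 0, 0.181, 0.286 and 0 CPM in IL4KO and 0.0925, 0.163, 0 and 0.188 CPM in WT. H2-Q2 was at most 0.286 CPM outside dKO_chow, and its log2 fold change of 3.39 (SE 0.52, FDR 2.71e-05) in dKO over WT on chow describes the difference that let it pass the filter.

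In the T region, H2-T23 encodes Qa-1, the ligand of the NKG2A receptor of NK cells, and was not called in any pair, at -0.10 (SE 0.086, FDR 0.359) in dKO over WT on chow. H2-T10 was at 1.88, 2.18, 2.18 and 3.59 CPM in dKO_HFD, 3.09, 3.13 and 3.1 CPM in IL4KO_HFD and 2.99, 2.46, 2.8 and 2.89 CPM in WT_HFD. On chow, H2-T10 was at 5.03, 4.33, 4.43 and 3.92 CPM in dKO, 2.5, 2.08, 1.14 and 1.39 CPM in IL4KO and 2.59, 3.67, 2.08 and 1.6 CPM in WT. H2-T10, a ligand of some gamma delta T cells and annotated as a polymorphic pseudogene, was called at 0.82 (SE 0.23, FDR 0.00558) in dKO over WT on chow. It shares 32% of its 50-base stretches with other members, and with H2-T9, H2-T10 and H2-T22 summed the value was -0.035 (SE 0.088, FDR 0.766), not a call. H2-T9 and H2-T22 make up most of that sum, and how reads were divided among the 3 genes was not tested. On HFD the sum was called lower in dKO over WT, at -0.36 (SE 0.088, FDR 0.00546), and in IL4KO over WT, at -0.35 (SE 0.10, FDR 0.0478), and for diet in dKO it was at -0.23 (SE 0.088, FDR 0.0391). Leaving out single libraries ended the IL4KO call without WT_HFD replicate 1, 2, 3 or 4 and without IL4KO_HFD replicate 1 or 3, and the diet call without dKO_chow replicate 1, 2 or 4 and dKO_HFD replicate 1, 2 or 3. Taken singly, H2-T9, H2-T22 and H2-T24 were not called in any pair. H2-M3, which presents N-formylated peptides of bacteria and mitochondria, was called at 1.06 (SE 0.28, FDR 0.00375) in dKO over IL4KO on chow and -0.86 (SE 0.26, FDR 0.0101) for diet in dKO. The diet call of H2-M3 was lost with counts thinned to the smallest library (FDR 0.108).

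H2-K2 was at 3.54, 5.77, 4.37 and 4.3 CPM in dKO_HFD, 5.71, 5.48 and 3.64 CPM in IL4KO_HFD and 15.2, 8.93, 12.97 and 11.99 CPM in WT_HFD. On chow, H2-K2 was at 4.98, 8.6, 7.06 and 6.07 CPM in dKO, 6.12, 4.15, 3.003 and 5.43 CPM in IL4KO and 10.5, 10.03, 9.24 and 7.42 CPM in WT. H2-K2, of the K region, is annotated as a transcribed unprocessed pseudogene, and 8.98% of its 50-base stretches are in other members. It was lower in IL4KO on both diets and in dKO on HFD, with no overlap with WT. The values were -0.98 (SE 0.22, FDR 0.00703) in IL4KO over WT on chow, -1.30 (SE 0.24, FDR 0.00352) in IL4KO over WT on HFD and -1.43 (SE 0.21, FDR 6e-05) in dKO over WT on HFD. With H2-K1 and H2-K2 summed these were 0.055 (SE 0.087, FDR 0.752), -0.14 (SE 0.094, FDR 0.503) and -0.32 (SE 0.087, FDR 0.0105), so the first changed sign, in a sum made almost wholly of H2-K1 reads. H2-Ke6 was at 54.3, 54.7, 52.3 and 47.3 CPM in dKO_HFD, 61.03, 56.6 and 58.97 CPM in IL4KO_HFD and 56.04, 60.7, 54.3 and 52.5 CPM in WT_HFD. On chow, H2-Ke6 was at 48.8, 44.7, 42.1 and 46.4 CPM in dKO, 58.3, 58.97, 58.6 and 60.2 CPM in IL4KO and 56.6, 62.5, 62.2 and 58.1 CPM in WT. H2-Ke6, also called Hsd17b8, carries the prefix but encodes a hydroxysteroid dehydrogenase and no MHC chain. It went the other way from the class II genes, at -0.40 (SE 0.062, FDR 3.46e-05) in dKO over WT on chow and 0.20 (SE 0.062, FDR 0.0141) for diet in dKO. The diet call of H2-Ke6 was lost with upper quartile scaling (FDR 0.104). The diet call of H2-Ke6 was also lost with only the compared groups in the fit (FDR 0.0507) and with limma on the deposited log2 values (FDR 0.129).

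Over the 31 tested members, the counts in each comparison read against all genes as follows. For diet in dKO, 2 of 31 members were higher, against 19.4% of all genes tested, and 21 lower, against 20.5%, and the members' median log2 fold change was -0.82 and that of all genes -0.02. For dKO against WT on chow, 16 of 31 members were higher, against 24.4% of all genes tested, and 1 lower, against 21.9%, and the members' median log2 fold change was 0.65 and that of all genes 0.024. For dKO against IL4KO on chow, 19 of 31 members were higher, against 23% of all genes tested, and 2 lower, against 22.2%, and the members' median log2 fold change was 0.72 and that of all genes 0.0075. In all 3, the members' share on the side where dKO_chow was high stood above that of all genes, and the share on the other side stood below it. These comparisons share dKO_chow, and H2-Ob and H2-Q2, which passed only through that group, are among the members counted.

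In the comparisons without dKO_chow fewer members were called. For diet in IL4KO, 3 of 31 members were higher, against 5.14% of all genes tested, and 2 lower, against 3.94%. For diet in WT, 3 of 31 members were higher, against 9.63% of all genes tested, and 0 lower, against 9.84%, and 6 members had an unadjusted p below 0.05 in either direction. For IL4KO against WT on chow, 0 of 31 members were higher, against 5.93% of all genes tested, and 1 lower, against 3.68%, and the members' median log2 fold change was -0.19 and that of all genes -0.011. There, 5 members had an unadjusted p below 0.05, and DESeq2 and limma called 2 each. For dKO against WT on HFD, 1 of 31 members was higher, against 12.9% of all genes tested, and 6 lower, against 11.6%, and the members' median log2 fold change was -0.22 and that of all genes 0.012. In IL4KO over WT on HFD, 1 of 31 members was higher, against 1.73% of all genes tested, and 1 lower, against 1.29%. In dKO over IL4KO on HFD, 0 of 31 members were higher, against 0.946% of all genes tested, and 0 lower, against 1.56%, by edgeR, with 5 members at an unadjusted p below 0.05, 2 called by DESeq2 and 1 by limma.

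For the difference of diet effects between dKO and WT, 1 of 31 members was higher, against 12.6% of all genes tested, and 17 lower, against 12.6%, and the members' median log2 fold change was -0.63 and that of all genes 0.014. Between dKO and IL4KO, 0 of 31 members were higher, against 12.7% of all genes tested, and 14 lower, against 11.7%, and the members' median log2 fold change was -0.64 and that of all genes -0.0017. Between IL4KO and WT, 0 of 31 members were higher, against 0.0155% of all genes tested, and 0 lower, against 0.031%, by edgeR, with 2 members at an unadjusted p below 0.05 and 0 called by DESeq2 or limma.

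**Figure D5:**
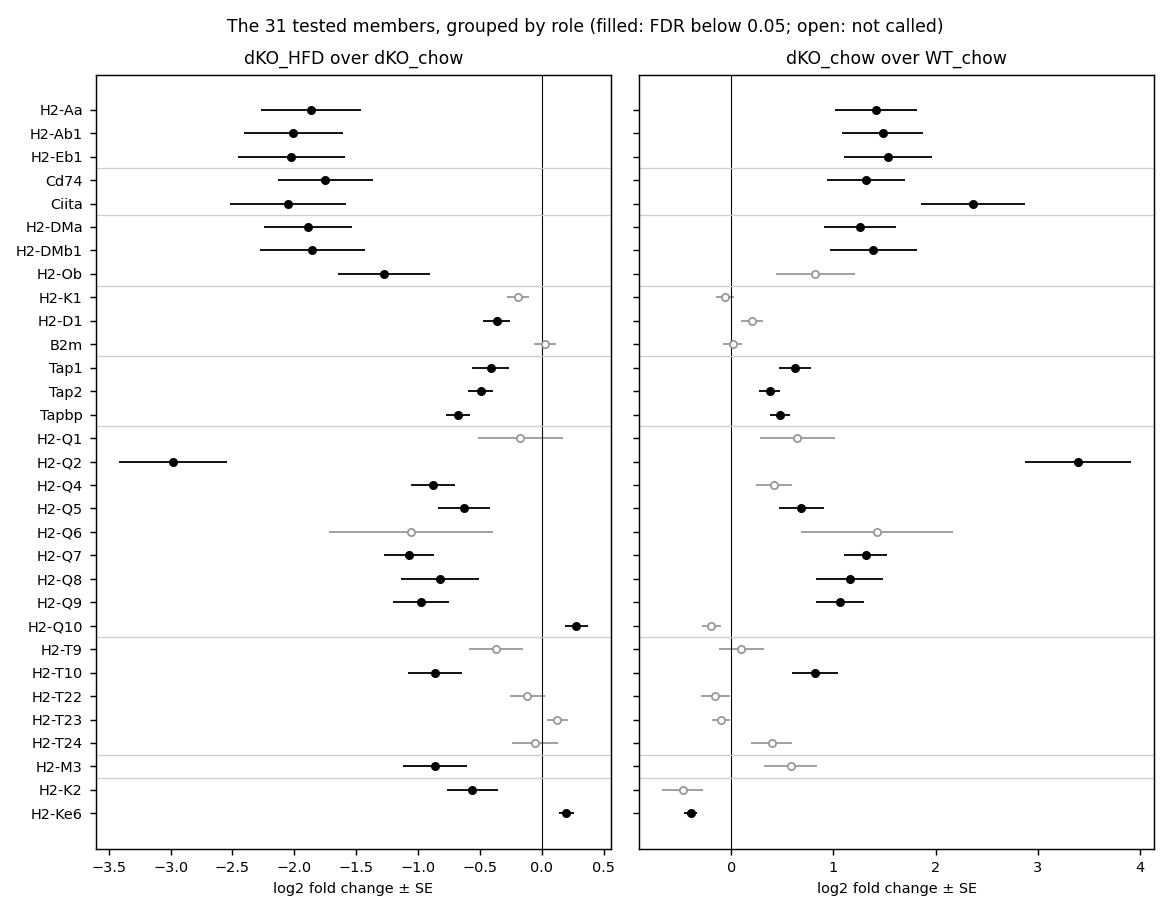
Log2 fold changes with standard errors of the tested members, for dKO_HFD over dKO_chow on the left and dKO_chow over WT_chow on the right, with filled points for an FDR below 0.05 and open points otherwise. Most members lie below 0 on the left and above 0 on the right, with H2-Ke6, H2-Q10 and H2-T23 on the opposite side in both panels. Both panels use the same dKO_chow libraries.

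Other genes of the pathway were read as lists. Of 10 class II processing genes tested, 6 higher and 1 lower passed in dKO over WT on chow and 1 higher and 7 lower for diet in dKO. Of these 10, 1, Cd63, passed the filter only through dKO_chow. Ifi30, the lysosomal thiol reductase that opens antigens for class II loading, averaged 29.8 ± 2.29 CPM in dKO_chow against 14.6 ± 1.65 CPM in WT_chow (log2 fold change 1.03, FDR 0.000367). Ctss, the cathepsin that trims the invariant chain, averaged 109 ± 17.6 CPM in dKO_chow against 46 ± 11.2 CPM in WT_chow (log2 fold change 1.24, FDR 0.00161). March1, a ligase that removes class II from the surface, averaged 6.41 ± 1.11 CPM in dKO_chow against 2.72 ± 0.334 CPM in WT_chow (log2 fold change 1.23, FDR 0.000377). Among 12 transcription genes, 5 higher and 1 lower passed in dKO over WT on chow, where 24.4% of all genes were higher and 21.9% lower. For diet in dKO it was 0 higher and 6 lower, against 19.4% higher and 20.5% lower of all genes. Nlrc5, the class I counterpart of Ciita, averaged 32.3 ± 3.18 CPM in dKO_chow against 16.4 ± 5.42 CPM in WT_chow (log2 fold change 0.97, FDR 0.000279). Rfx5, a subunit of the X box factor, averaged 16.1 ± 2.68 CPM in dKO_chow against 9.08 ± 0.874 CPM in WT_chow (log2 fold change 0.84, FDR 0.00117).

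The class I loading list had 1 higher and 1 lower of 10 tested in dKO over WT on chow, against 24.4% higher and 21.9% lower of all genes. Psmb8, an immunoproteasome subunit, averaged 44.2 ± 2.74 CPM in dKO_chow against 28.4 ± 6.23 CPM in WT_chow (log2 fold change 0.64, FDR 0.00262). Canx, a chaperone of class I folding, averaged 399 ± 8.69 CPM in dKO_chow against 476 ± 41.6 CPM in WT_chow (log2 fold change -0.26, FDR 0.0281). The class I-like list had 2 higher and 3 lower of 8 tested, with its share higher near that of all genes. Mr1, which presents vitamin metabolites, averaged 9.78 ± 1.96 CPM in dKO_chow against 4.43 ± 0.447 CPM in WT_chow (log2 fold change 1.14, FDR 9.65e-06). Cd1d1, which presents lipids to NKT cells, averaged 135 ± 8.72 CPM in dKO_chow against 233 ± 13.7 CPM in WT_chow (log2 fold change -0.79, FDR 1.05e-05). Fcgrt, the neonatal Fc receptor, averaged 136 ± 12.3 CPM in dKO_chow against 195 ± 14.2 CPM in WT_chow (log2 fold change -0.51, FDR 9.25e-05). The costimulation list had 3 higher and 0 lower of 4 tested. Cd86, a ligand of CD28, averaged 5.39 ± 0.469 CPM in dKO_chow against 2.95 ± 0.89 CPM in WT_chow (log2 fold change 0.87, FDR 0.0129). Cd274, which encodes PD-L1, averaged 4.04 ± 0.657 CPM in dKO_chow against 1.81 ± 0.456 CPM in WT_chow (log2 fold change 1.15, FDR 0.0112). The interferon gamma target list had 5 higher and 0 lower of 14 tested on chow and 0 higher and 9 lower of 14 tested for diet in dKO, against the same 24.4% of all genes higher on chow and 20.5% lower for diet. Irgm2, an interferon-induced GTPase, averaged 85.99 ± 18.4 CPM in dKO_chow against 41.6 ± 10.4 CPM in WT_chow (log2 fold change 1.04, FDR 0.00286). Gbp4, a guanylate-binding protein, averaged 9.3 ± 2.2 CPM in dKO_chow against 4.23 ± 1.25 CPM in WT_chow (log2 fold change 1.13, FDR 0.00329). The median log2 fold change in dKO over WT on chow was 0.82 over the class II processing list, 0.38 over the interferon gamma list and 0.043 over the class I loading list, against 0.024 over all genes.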

How the data were processed

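Libraries were prepared from RNA of perfused liver by a stranded, poly(A)-selecting method, per the labels' protocols. The submitters' processing notes name bcl2fastq 2.16, TopHat2 2.0.8 and Partek, with no version for the last, and the mm10 build. Which annotation, counting mode and strand option were used is not given in the sources used here. For each gene symbol the authors deposited an estimated count, and for 14078 genes (37 members) a log2 value, which serves only as an alternative.

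After rounding to integers, the deposited estimated counts entered edgeR 4.0.16 in R 4.3.3: filter by group, trimmed-mean scaling, all 23 libraries in a model of 6 group means (17 residual degrees of freedom), robust quasi-likelihood tests, two-sided, with Benjamini-Hochberg adjustment over 12891 genes and a threshold of 0.05. The common biological coefficient of variation was 0.156. The 9 pairs and 3 differences of diet effects were read for the members. The scripts were tested on simulated data. No batch or day is in the labels. No pair of replicate libraries agreed within sampling noise, the lowest mean chi-square per gene being 4.72.

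Per-library values are given for members called in dKO over WT on chow or in at least 3 of the 9 pairs, and for H2-K1, H2-D1, B2m and Ciita; of other lists, up to 4 genes with the lowest FDR in dKO over WT on chow were eligible. The members, lists and alternatives were chosen with earlier results of these data known. Alternatives were RLE and upper quartile scaling, no filter, a filter of 50 counts in every library of a group, DESeq2 1.42.0, only the groups compared, limma 3.58.1 on the log2 values, counts thinned to the smallest library and each library left out. Leaving out 2 libraries that stood apart and summing related genes were added, as were those sums with each library left out, after seeing the data. Levels per kilobase used transcript lengths, and positions used GENCODE M21 (GRCm38), where 45 of 49 members had an entry. Tables and figures used Python 3.11.15, pandas 2.3.3 and matplotlib 3.10.9.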

Additional observations from a re-analysis of the deposited data

Results flagged for a closer look

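A library was marked where its gap to the nearest other library of its group was past Dixon's 95% limit for 4 libraries. Of 155 groups of values examined, 13 held such a library, and chance alone marks about 1 in 20. dKO_HFD replicate 4 accounted for 8 of the 13. It had H2-Ab1 at 40.3 CPM, against 15.1 to 17.3 CPM in the other 3, H2-Eb1 at 41.01 CPM, against 16.1 to 20.2 CPM in the other 3 and Cd74 at 144 CPM, against 55.7 to 66.6 CPM in the other 3. H2-DMa was at 4.999 CPM, against 1.9 to 2.26 CPM in the other 3, and H2-DMb1 at 7.26 CPM, against 1.98 to 2.55 CPM in the other 3. Its class I side stood out for Tapbp at 108 CPM, against 73.4 to 75.4 CPM in the other 3, H2-Q9 at 25.7 CPM, against 11.9 to 14.2 CPM in the other 3 and H2-T9 at 42.6 CPM, against 29.1 to 31.2 CPM in the other 3. The same library lay nearer to dKO_chow than any other library outside that group on the first principal component of all genes. Its summed Kupffer, neutrophil, cholangiocyte and T and NK cell markers were also the highest of its group. Neutrophil markers summed to 66 CPM, against 2.86 to 4.27 CPM in the other 3, and cholangiocyte markers to 332 CPM, against 125 to 178 CPM. The monocyte and macrophage sum, at 232 CPM, lay within the range of the other 3, 194 to 254 CPM. The part of these markers' cells in the marked values was not tested.

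The other 5 marked values lay in 4 libraries. H2-K1 in IL4KO_chow replicate 1 was at 1567 CPM, against 1307 to 1350.0 CPM in the other 3. H2-Q5 in WT_HFD replicate 1 was at 3.89 CPM, against 4.31 to 4.36 CPM in the other 3. In WT_HFD replicate 2, H2-Q7 was at 19.5 CPM, against 17.2 to 17.5 CPM in the other 3, and H2-T23 at 186 CPM, against 164 to 167 CPM in the other 3. H2-T9 in WT_chow replicate 2 was at 60.8 CPM, against 30.5 to 35.6 CPM in the other 3.

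The diet effect differed between dKO and WT, by the test of the difference itself, for 18 of 31 members. Of these, 1 was higher and 17 lower, against 12.6% of all genes on each side. The differences in log2 fold change, dKO minus WT, among class II genes were -1.69 for H2-Aa, -1.82 for H2-Ab1, -1.90 for H2-Eb1, -1.50 for Cd74, -2.32 for Ciita, -1.71 for H2-DMa and -1.82 for H2-DMb1. Among class I and loading genes they were -0.57 for H2-D1, -0.63 for Tap1, -0.53 for Tap2 and -0.61 for Tapbp. Among the remaining members they were -1.93 for H2-Q1, -3.90 for H2-Q2, -0.99 for H2-Q4, -0.90 for H2-Q7, -1.02 for H2-T10 and -0.96 for H2-K2. H2-Q2 passed the filter only through dKO_chow, so its difference was built into its passing. H2-Ke6, at 0.30, was the one with a positive sign. With related genes summed, 3 of these calls were lost: H2-Q7 was at -0.62 (FDR 0.117), H2-T10 at -0.32 (FDR 0.0583) and H2-K2 at -0.24 (FDR 0.152). Over all alternatives, Cd74 lost its call under 16 of 25, H2-Q7 under 14 of 26 and Tap1 under 12 of 25. H2-DMb1 lost it under 12 of 26, H2-Aa under 11 of 25 and H2-Ab1 under 5 of 25. Only H2-D1, Tap2, Tapbp, H2-Q1, H2-Q2 and H2-Q4 kept their calls under every alternative run.

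Between dKO and IL4KO the diet effect differed for 14 of 31 members, all lower. Of all genes, 12.7% were higher and 11.7% lower. The differences, dKO minus IL4KO, were -2.23 for H2-Aa, -2.37 for H2-Ab1, -2.53 for H2-Eb1, -1.98 for Cd74, -2.48 for H2-DMa and -2.40 for H2-DMb1. H2-D1 was at -0.46, Tap2 at -0.67 and Tapbp at -0.57. H2-Q1 was at -2.60, H2-Q4 at -0.79, H2-Q6 at -5.37, H2-T10 at -1.61 and H2-M3 at -1.17. With related genes summed, H2-Q6 was at -0.25 (FDR 0.574) and H2-T10 at -0.21 (FDR 0.258), neither a call. H2-M3 lost its call under 15 of 24 alternatives, H2-D1 under 11 of 25 and H2-Q4 under 10 of 24. The calls of H2-Aa, H2-Ab1, H2-Eb1, Cd74, H2-DMa and H2-DMb1 were each lost without IL4KO_HFD replicate 2. These and the differences against WT share the 8 dKO libraries.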

How the results depend on the processing

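Of 111 called member results, 61 kept their call in every alternative run, 48 lost it under at least 1 alternative, and 3 changed sign when counts of related genes were summed, 1 of which, H2-Q6, also lost its call elsewhere. The 3 were H2-Q6 for diet in IL4KO at -0.74, H2-T10 in dKO over WT on chow at -0.035, and H2-K2 in IL4KO over WT on chow at 0.055 on the log2 scale. All 111 calls held under RLE scaling and with DESeq2. The count of members called moved by more than 1.5 times in few cases. In IL4KO over WT on HFD it was 1 with no filter on low counts, with the strict filter, with only the compared groups fitted and with limma, against 2. For diet in WT it was 5 with DESeq2, against 3. In IL4KO over WT on chow it was 2 with DESeq2 and with limma, against 1. In dKO over IL4KO on HFD it was 2 with DESeq2 and 1 with limma, against 0. In dKO over WT on HFD it was 4 with only the compared groups fitted, against 7. Without dKO_HFD replicate 4 and IL4KO_HFD replicate 2 it was 12 of 32 tested, all lower, against 6 lower and 1 higher of 31. The share of all genes called was not worked out for that refit. For diet in IL4KO it was 2 without those libraries, against 5.

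Leaving out each library in turn gave 18 to 22 members called for diet in dKO, 1 to 5 for diet in IL4KO, 2 to 4 for diet in WT, 16 to 19 in dKO over WT on chow and 20 to 22 in dKO over IL4KO on chow. It gave 1 to 2 in IL4KO over WT on chow, 5 to 8 in dKO over WT on HFD, 0 to 1 in dKO over IL4KO on HFD and 1 to 2 in IL4KO over WT on HFD. For the differences of diet effects it gave 7 to 20 for dKO minus WT, with 7 without WT_HFD replicate 1. It gave 5 to 17 for dKO minus IL4KO, with 5 without IL4KO_HFD replicate 2, and 0 to 0 for IL4KO minus WT. Without both dKO_HFD replicate 4 and IL4KO_HFD replicate 2, the count for dKO minus WT was 21 of 32 tested, against 18 of 31. The single call kept for diet in IL4KO came without IL4KO_HFD replicate 2. The causes were not tested. No paired analysis was possible because the replicate numbers follow accession order and pair no animals.

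The IL4KO libraries were the shallowest, at 7.11 to 11.2 in units of 1e6 counts, and IL4KO_HFD had 3 animals, which limits what its comparisons can show. Low members such as H2-Q2, H2-Q6 and Ciita rest on few counts, and 7 further members had too few to test. How reads shared by related H2- genes were divided is not given in the sources used here.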
